A study of Mus musculus with 4 samples.

Results

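The expression of 38 cell cycle genes was followed across 14053 single cells from the wall of the mouse aorta. The genes were taken from a fixed list: 15 act in the S phase, in which DNA is copied, 22 act in the G2 and M phases, in which the cell prepares for and carries out division, and Stmn1 belongs to neither phase alone. All 38 were found by Ensembl identifier among the 27998 genes of each of the 4 libraries. A cell was counted when 5 or more of the 38 genes had at least 1 UMI, a UMI being 1 captured RNA molecule. Of the 14053 cells, 680 met this count, and 250 of them held 10 or more of the genes.

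The cells came from C57BL/6 mice. Libraries a and b were made from the intima, the inner layer with the endothelium, of the descending aorta of aged mice, with 6 mice pooled in each. Another library held the intima of the aortic arch of young mice (8 mice pooled), and the last the adventitia, the outer layer, of aged mice, for which the number of animals was not given. No treatment or altered genotype was named. Intimal cells were loosened with trypsin, lifted from the opened vessel with a fine blade and collected in actinomycin D, which blocks transcription. Red cells were lysed, and RNA was read with the 10x 3′ version 2 chemistry. Arch and descending aorta also differed in age and library, so region, age and library cannot be told apart. The sources name 6 mice per descending library but not whether a and b were independent preparations, so their spread may be technical.

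Libraries a, b, arch and adventitia held 1986, 2095, 2122 and 7850 analysed cells with median depths of 5198.5, 4887, 6951.5 and 2473 UMIs per cell, and total deposited UMIs of 13715023, 13181305, 18624525 and 29370967. Pairs of libraries shared between 4 and 31 cell barcodes. Cell classes were named from marker genes after clustering without the cell cycle genes, and each name stands for a cluster that looks like that type: endothelial-like, fibroblast-like and so on. The arch library was the deepest, and most of its endothelial cells lay in other clusters than most descending ones. It also held 109 of the 112 cells of a T cell cluster called here the thymocyte-stage cluster. Its leading genes included Dntt, Cd8a, Tcf7 and Cd8b1, genes of T cells that mature in the thymus. Hist1h2ap, Pclaf, Ube2c and Top2a were among them too. Hist1h2ap and Pclaf were not left out of the clustering, and whether they shaped this cluster was not tested. The matching T cell cluster held 177 cells when all variable genes were used and 178 with doublets kept.

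In a dividing cell, DNA copying is prepared by licensing factors that load the MCM helicase onto DNA, and it is carried out with the sliding clamp and with enzymes that make the nucleotides. The later phase is driven by cyclin-dependent kinase 1 with the A and B cyclins, and it ends when the anaphase-promoting complex marks those cyclins for destruction while the spindle pulls the chromosomes apart. The vessel wall is a tissue of slow turnover, and some of its macrophages are known to maintain themselves by local division.

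Promoters are shown first because most G2/M genes were detected in the same cells, and complexes that act on cell cycle promoters are known to read short motifs. These 3 motifs were searched on both strands from 250 bases before to 50 bases after the start site: the CCAAT box (CCAAT), the cell cycle homology region (TTTGAA or TTCGAA) and an E2F-type site (TTTGGCGC, TTTCGCGC, TTTCCCGC or TTTGCCGC). Sequences came from RefSeq (GRCm38.p6) and matched 32 of the 38 genes. Pcna (chr2:132253131-132253430, minus strand) and Rrm2 (chr12:24708004-24708303, plus strand) are the S genes, and Ube2c (chr2:164769679-164769978, plus strand) and Birc5 (chr11:117848987-117849286, plus strand) the G2/M genes, with the most UMIs in cells with 5 or more of the genes. Mcm6 (chr1:128359656-128359955, minus strand) and Top2a (chr11:99024140-99024439, minus strand) were added, after the motifs had been counted, as promoters with several motifs. Each runs 5′ to 3′ along the gene's strand, and capitals mark motif matches on either strand.
Pcna: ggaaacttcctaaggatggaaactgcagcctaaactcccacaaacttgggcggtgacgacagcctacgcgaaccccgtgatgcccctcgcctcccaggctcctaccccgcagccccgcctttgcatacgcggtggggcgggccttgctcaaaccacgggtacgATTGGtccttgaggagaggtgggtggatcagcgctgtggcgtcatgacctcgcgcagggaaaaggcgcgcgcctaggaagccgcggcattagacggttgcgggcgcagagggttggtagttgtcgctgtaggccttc
Rrm2: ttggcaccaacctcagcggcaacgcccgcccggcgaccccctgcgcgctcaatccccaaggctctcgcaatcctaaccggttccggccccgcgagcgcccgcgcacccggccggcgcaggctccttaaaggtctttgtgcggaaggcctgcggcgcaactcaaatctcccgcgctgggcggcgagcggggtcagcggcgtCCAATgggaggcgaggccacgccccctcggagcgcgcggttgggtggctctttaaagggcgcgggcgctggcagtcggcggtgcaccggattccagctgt
Mcm6: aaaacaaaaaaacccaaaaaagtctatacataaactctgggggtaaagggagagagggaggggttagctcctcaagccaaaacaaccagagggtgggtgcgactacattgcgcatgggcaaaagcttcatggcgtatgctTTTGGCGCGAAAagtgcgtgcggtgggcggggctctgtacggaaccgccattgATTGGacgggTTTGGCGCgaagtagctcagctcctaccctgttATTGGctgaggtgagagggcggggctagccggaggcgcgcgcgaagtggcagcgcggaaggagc
Ube2c: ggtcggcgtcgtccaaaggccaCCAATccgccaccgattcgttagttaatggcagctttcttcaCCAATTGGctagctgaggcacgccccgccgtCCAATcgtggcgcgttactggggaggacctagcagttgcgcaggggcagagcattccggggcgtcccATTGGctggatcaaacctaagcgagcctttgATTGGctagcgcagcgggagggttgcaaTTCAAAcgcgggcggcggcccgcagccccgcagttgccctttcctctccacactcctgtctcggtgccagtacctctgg
Top2a: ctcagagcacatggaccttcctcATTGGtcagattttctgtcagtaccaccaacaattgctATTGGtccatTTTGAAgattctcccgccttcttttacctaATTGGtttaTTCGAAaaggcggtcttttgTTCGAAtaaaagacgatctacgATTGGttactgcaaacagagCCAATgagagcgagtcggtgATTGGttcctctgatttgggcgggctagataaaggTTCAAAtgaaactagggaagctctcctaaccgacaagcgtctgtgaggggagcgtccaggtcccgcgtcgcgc
Birc5: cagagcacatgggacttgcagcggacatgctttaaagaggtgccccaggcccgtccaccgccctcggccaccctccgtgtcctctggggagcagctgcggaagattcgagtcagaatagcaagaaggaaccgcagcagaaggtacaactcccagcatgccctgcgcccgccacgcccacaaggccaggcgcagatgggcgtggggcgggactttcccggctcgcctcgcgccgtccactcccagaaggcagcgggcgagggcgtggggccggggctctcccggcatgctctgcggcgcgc

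In these sequences the Ube2c promoter held 6 CCAAT boxes and a homology region 29 bases before the start site. The Top2a promoter held 6 CCAAT boxes and 4 homology regions, the nearest 23 bases before the start. Mcm6 held 3 E2F-type matches, at 110, 106 and 47 bases before the start, of which the first pair overlap, with 2 CCAAT boxes. Pcna and Rrm2 each held 1 CCAAT box, at 87 and 50 bases, and the Birc5 window held none of the searched letters. A CCAAT box was present in 17 of 19 G2/M promoters (89.5%) and 9 of 13 S promoters (69.2%), beside 37.9% of all 27025 promoters. The homology region was in 15 of 19 G2/M promoters (78.9%), in 2 of 13 S promoters (15.4%) and in 19.4% of all promoters. E2F-type sites were in 6 of 13 S promoters (46.2%), 1 of 19 G2/M promoters (5.26%) and 2.32% of all. These are letter matches, not measured binding sites.

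Cells with 5 or more of the genes made up 3.58% of descending library a (71 cells, 95% interval 2.80 to 4.49), 3.25% of library b (68 cells, 2.53 to 4.10), 17.95% of the arch (381 cells, 16.3 to 19.7) and 2.04% of the adventitia (160 cells, 1.74 to 2.38). These and all later intervals on shares are exact Clopper-Pearson intervals and cover counting error only. The arch share lay above both descending shares, which overlapped each other. Depth differed between libraries, so every cell was also thinned to 2000 UMIs. The shares were then 0.415%, 0.409%, 5.28% and 1.97%, with 1930, 1955, 2122 and 5124 cells deep enough to enter. The adventitial share lay below the descending shares before thinning and above them after it. With 4 libraries, no permutation test of these shares could pass the threshold.

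The count of 5 did not pick out 1 kind of cell. The 430 cells with 5 to 9 genes were deep, with a median of 13246 UMIs, and 323 of them (75.1%) were endothelial. They carried a median of 4 S genes and 1 G2/M gene, 103 carried no G2/M gene, and 30 carried at least 3 of each phase. The 250 cells with 10 or more genes had a median of 8386.5 UMIs, 8 S genes and 12 G2/M genes, 209 of them carried at least 3 of each, and 8.00% were endothelial. Cells just inside the count (5 genes, 229 cells, median 12587 UMIs, 78.2% endothelial) resembled cells just outside it (4 genes, 437 cells, median 10381 UMIs, 71.6% endothelial), with medians of 3 S genes and 1 G2/M gene on both sides. At least 3 genes of each phase were thus present in most cells with 10 or more genes and in few with 5 to 9. Cells with 5 genes, 229 of those 430, cannot hold 3 of each, so the contrast follows in part from the count. Cells are therefore called by their count below and not dividing cells. Both counts are given below, and the count of 10 was chosen after the data had been seen.

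**Figure D1:**
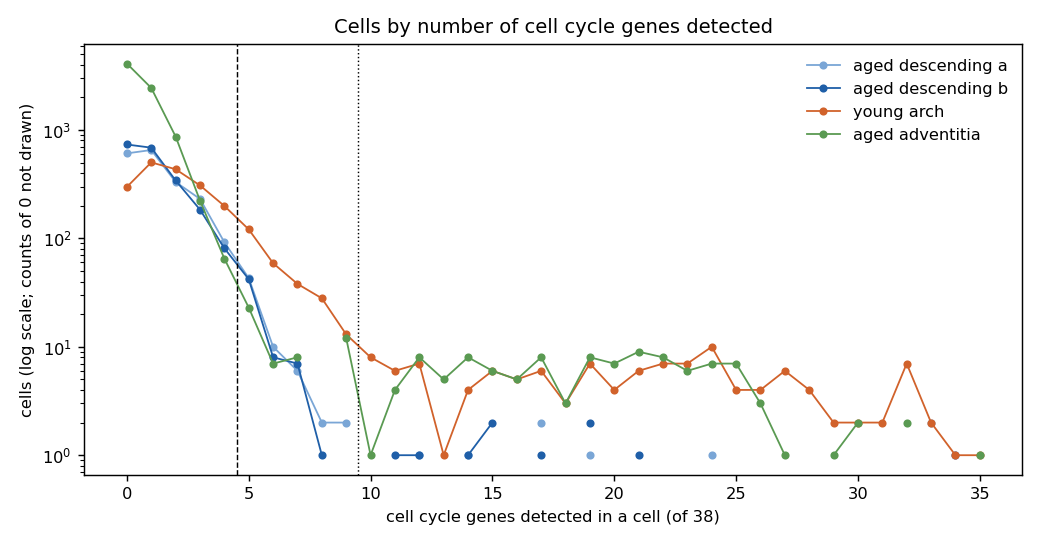
Number of the 38 cell cycle genes detected per cell (x axis) against the number of cells (y axis, log scale) in each of the 4 libraries. Dashed and dotted vertical lines mark the counts of 5 and 10. Most cells hold 0 to 4 of the genes, and a flat tail reaches 35 genes in the arch and in the adventitia.

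**Figure D2:**
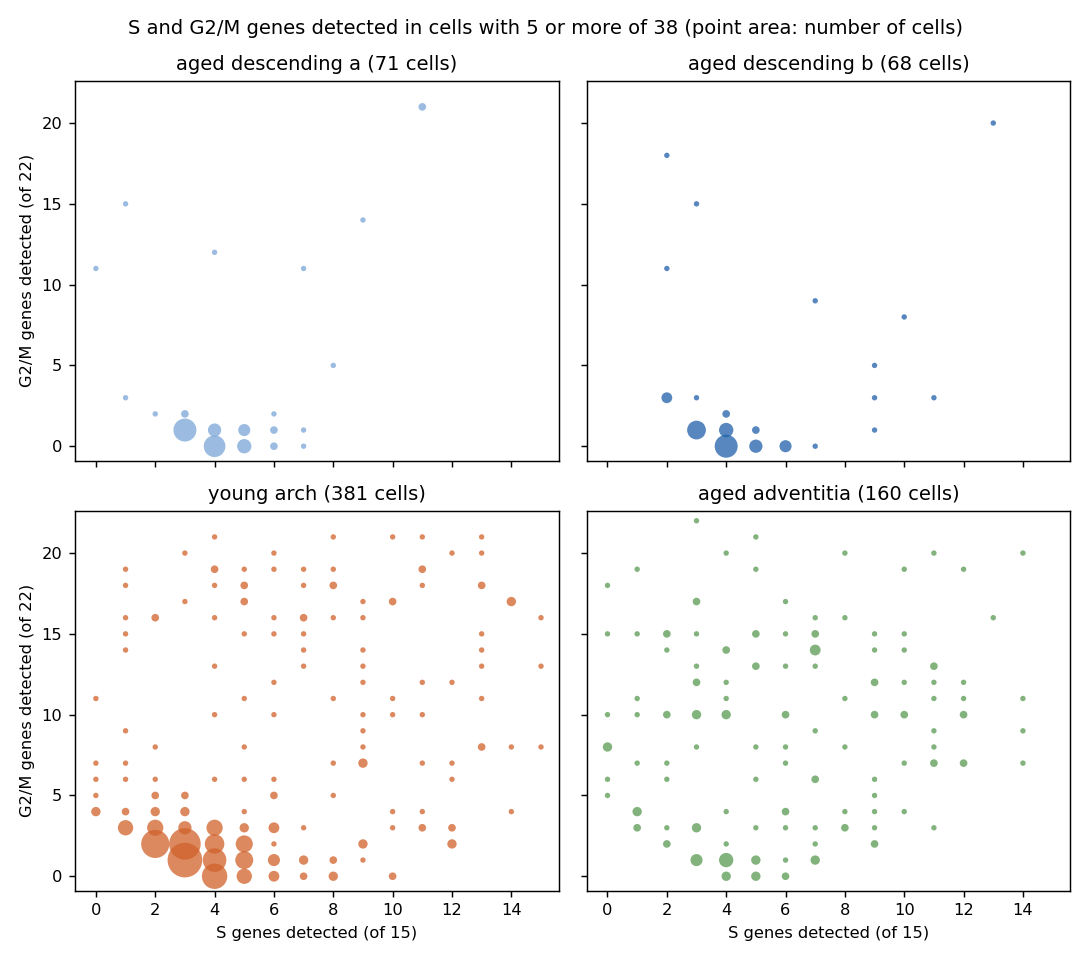
Number of S genes (x axis) and of G2/M genes (y axis) detected in cells with 5 or more of the 38 genes, by library; point area gives the number of cells. The largest points lie at 2 to 4 S genes and 0 to 2 G2/M genes, and the cells with 10 or more genes spread to high numbers of both.

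By the count of 10, the shares were 0.403% in descending library a (8 cells), 0.477% in b (10 cells), 5.75% in the arch (122 cells) and 1.40% in the adventitia (110 cells). The arch cells were mostly T cells: 88 of the 122 belonged to the thymocyte-stage cluster, where 80.7% of 109 cells met the count (95% interval 72.1 to 87.7). Those 88 had a median of 22 of the genes, and 58 of them carried more G2/M than S genes, the G2/M list being the longer. Without that cluster the arch share was 1.69% by the count of 10 (34 of 2013 cells, 1.17 to 2.35), beside 0.302%, 0.478% and 1.40% in a, b and adventitia (1.15 to 1.69), and 14.3% by the count of 5 (12.8 to 15.9), values added after seeing the data. Whether the thymocyte-stage cells belonged to the vessel wall was not tested. Summed over the libraries, the 250 cells were 90 thymocyte-stage T cells, 37 plasma cells, 28 other T cells, 30 macrophages, 20 endothelial cells, 18 cells of an unnamed cluster led by Retnla, Ear2 and Ccr2, 10 dendritic cells, 8 fibroblasts, 5 B cells, 1 each of mesothelial cells, monocytes and neutrophils, and 1 cell of an unnamed adventitial cluster led by Rgs5. Among doublets (droplets judged to hold 2 cells) that had been removed, 4 of 44, 1 of 37, 22 of 50 and 31 of 647 had carried 5 or more of the genes.

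Macrophages of the intima were described by subtype. Intima resident macrophages, marked by Mmp12, Itgax and Cx3cr1, held cells with 10 or more genes in all 3 intimal libraries: 1 of 25 in a (4.0%), 2 of 18 in b (11.1%) and 10 of 75 in the arch (13.3%, interval 6.58 to 23.2). Macrophages marked by Lyve1, Folr2 and Cd163 held none: 0 of 56, 0 of 52 and 0 of 39 in the intima, and 0 of 274 in the adventitia, counts that allow shares of up to 5.36%, 5.77%, 7.69% and 1.09% by a limit of 3 counts and up to 6.38%, 6.85%, 9.03% and 1.34% by the Clopper-Pearson interval. The arch intervals of the 2 subtypes overlapped. By the count of 5 the resident macrophages stood at 4.0%, 27.8% and 29.3%, and at 1 of 23, 2 of 16 and 8 of 75 cells after thinning, while the Lyve1 macrophages stood at 0%, 1.92%, 0% and 0.365% before it. Adventitial macrophages with the markers of neither subtype held 17 cells with 10 or more genes among 391 (4.35%, 2.55 to 6.87), with a median of 21 genes. The unnamed Retnla, Ear2 and Ccr2 cluster held 0 of 6, 4 of 12, 6 of 21 and 8 of 175 such cells. That cluster carried macrophage markers such as Csf1r, Adgre1 and C1qa, but it was not counted as macrophages here or in later comparisons.

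Endothelial cells showed the reverse of the thymocyte-stage cluster: many met the count of 5 and few the count of 10. The shares with 5 or more genes were 4.18% of 1484 cells in a, 3.94% of 1296 in b, 17.8% of 1254 in the arch (15.70 to 20.01) and 2.03% of 345 in the adventitia. After thinning they were 1 of 1436, 2 of 1211, 6 of 1254 (0.478%) and 3 of 265. With 10 or more genes there were 1, 3, 12 (0.957%, 0.495 to 1.67) and 4 (1.16%, 0.317 to 2.94) cells. Arch endothelial cells were also deeper, at a median of 8418.5 UMIs beside 5737 and 5401.5, and the arch cells that met the count of 5 had a median of 15813. Red cells, which have lost their nucleus, met the count of 5 in 0 of 41, 0 of 13, 1 of 57 and 1 of 747 cells at median depths of 4239, 4575, 5482 and 2000 UMIs.

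Fibroblasts held few such cells: 4 of 336 in a, 1 of 646 in b, 3 of 436 in the arch and 0 of 1430 in the adventitia carried 10 or more genes. The 4 cells of library a carried a median of 20.5 genes, and all held more G2/M than S genes, from lists of 22 and 15. Plasma cells, the antibody-secreting B lineage cells of the adventitia, were the class with the most of these cells there, with 37 of 264 (14.0%, 10.1 to 18.8) at a median of 23 genes. Adventitial dendritic cells stood at 9 of 63 (14.3%, 6.75 to 25.4), and the 2125 adventitial T cells held 27 (1.27%). The 36 smooth muscle cells of the 4 libraries held none.

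**Figure D3:**
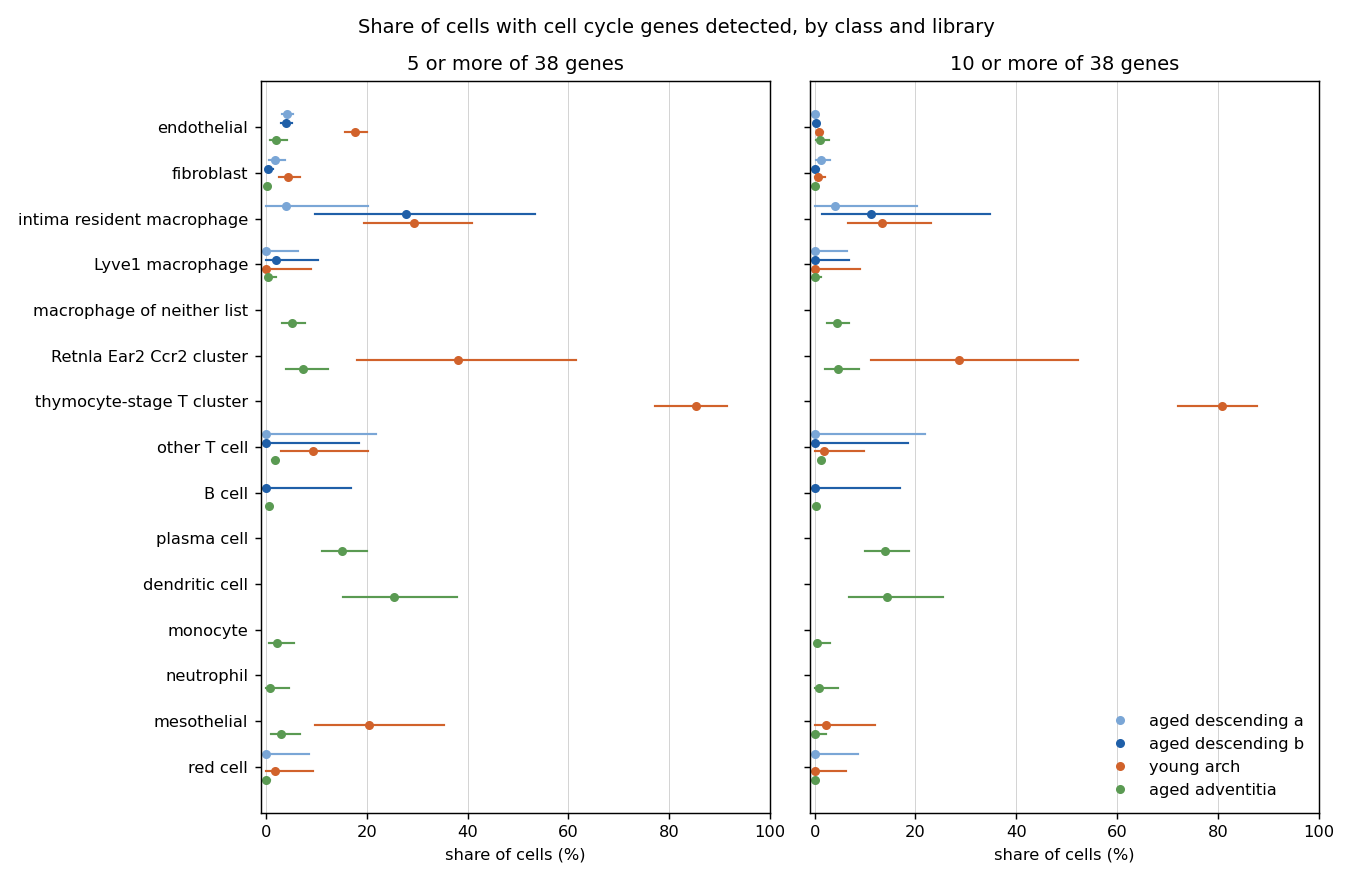
Share of cells (x axis, percent) with 5 or more and with 10 or more of the 38 genes, by cell class (rows) and library (colours), for classes with at least 15 cells in a library; lines are 95% Clopper-Pearson intervals. Endothelial cells of the arch are high by the count of 5 (17.8%) and low by the count of 10 (0.957%), while the thymocyte-stage cluster is high by both (85.3% and 80.7%).

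The S genes were spread over many cells, and the G2/M genes were not. The part of a gene's UMIs that lay in cells with 10 or more genes had a median over the 15 S genes of 5.96% in a, 6.86% in b, 48.4% in the arch and 28.9% in the adventitia. Over the 22 G2/M genes it was 73.3%, 77.0%, 81.8% and 74.4%. These cells were chosen by the genes themselves, so the values describe and are not tested. Among the S genes Rrm2 and Tk1 were like the G2/M genes. Of their UMIs, 85.2% and 76.0% lay in such cells in library a, and 69.0% and 88.9% in b. Mcm6 had 2.35% and Pcna 3.76% in a. Among the G2/M genes Cenpa was like the S genes, with 13.9%, 18.6%, 63.8% and 31.6% across the libraries, the lowest of the 22 in each.

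Pcna, the sliding clamp that holds the polymerases on DNA, was present in all main classes. Its level in endothelial cells was 32.1, 35.3, 29.1 and 56.4 CPM (UMIs scaled to a common total in each class and library) in a, b, arch and adventitia. In resident macrophages it was 115, 117 and 121 CPM in the 3 intimal libraries, all above the 4 endothelial values. The values of a and b rest on 13 and 11 UMIs, and their Poisson intervals (61.0 to 196 and 58.2 to 209) overlapped that of adventitial endothelium (44.2 to 70.9) but not those of intimal endothelium. The helicase subunit Mcm6 stood at 27.5, 25.1, 27.5 and 20.9 CPM in endothelial cells and at 19.1, 14.9, 17.6 and 9.23 CPM in fibroblasts. Mcm3, another subunit, stood at 18.5, 18.2, 19.3 and 24.0 CPM in endothelial cells and at 6.38, 6.33, 12.8 and 7.62 CPM in fibroblasts. For both subunits the endothelial values lay above the fibroblast values in each library. The other subunits Mcm2, Mcm4, Mcm5 and Mcm7 ranged from 3.79 to 14.3 CPM in endothelial cells.

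Among the enzymes of nucleotide synthesis, Tyms, which makes thymidylate, and Rrm1, the large subunit of ribonucleotide reductase, were detected in endothelial cells of each library. Tyms stood at 14.4, 11.7, 16.7 and 17.8 CPM in endothelial cells, and Rrm1 at 18.4, 19.7, 16.0 and 24.7 CPM. The small subunit Rrm2 stood at 0.189, 0.897, 4.35 and 10.8 CPM and the thymidine kinase Tk1 at 0.757, 0.449, 3.53 and 5.41 CPM. Both were lower in the 2 descending libraries than in the others. The licensing factors Cdc6 and Cdt1, which load the helicase, stood at 7.48, 12.6, 9.93 and 6.96 CPM and at 1.80, 2.92, 2.79 and 6.18 CPM. Gins2, a part of the active helicase, ranged from 1.55 to 4.76 CPM and Uhrf1, which helps to copy DNA methylation, from 0.473 to 2.32 CPM.

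The G2/M genes were low in endothelial cells of the descending aorta. Birc5, the survivin subunit of the chromosomal passenger complex, stood at 1.23, 2.13, 12.2 and 8.50 CPM (13, 19, 149 and 11 UMIs). Top2a, the topoisomerase that untangles sister chromosomes, stood at 1.14, 2.47, 7.14 and 8.50 CPM. Mki67, which coats mitotic chromosomes, was listed at 0 in a and stood at 1.01, 3.12 and 6.96 CPM in the others. In each of these genes both descending values lay below the arch and adventitial values. The mitotic cyclin Ccnb2 stood at 0.947, 1.46, 6.56 and 4.64 CPM, and the kinase Cdk1 at 0.947, 3.25, 2.95 and 10.8 CPM. The activator Cdc20 and the enzyme Ube2c, both of the anaphase-promoting pathway, stood at 5.40, 6.28, 11.1 and 10.0 CPM and at 2.27, 5.16, 10.5 and 15.5 CPM. Cenpa, the histone variant of the centromere, was present at 14.4, 13, 18.4 and 20.9 CPM. The remaining 14 genes were the cyclins Ccna2 and Ccnb1, the kinases Plk1, Aurka, Aurkb and Bub1, and Tpx2, Cenpe, Cenpf, Nusap1, Prc1, Kif11, Kif23 and Hmmr of the spindle and kinetochore. They ranged from 0 to 3.14 CPM in descending and from 0.574 to 13.9 CPM in arch and adventitial endothelium.

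Resident macrophages carried the G2/M genes in library b and the arch and few in library a. Birc5 stood at 17.6, 106 and 79.8 CPM in a, b and arch, Top2a at 0, 53.0 and 76.8 CPM, and Ube2c, an enzyme of the anaphase-promoting pathway, at 8.82, 202 and 56.1 CPM. The values of a and b rest on 25 and 18 cells, and in a on 0 to 2 UMIs per gene. In Lyve1 macrophages Birc5 stood at 4.37, 0, 0 and 4.25 CPM, Top2a at 4.37, 0, 0 and 2.12 CPM and Ube2c at 0, 0, 19.9 and 4.25 CPM over a, b, arch and adventitia. Nusap1, Prc1, Kif11, Hmmr, Cenpe and Plk1, which build or attach the spindle or start mitosis, had no UMI in the Lyve1 macrophages of any library. Stmn1, which destabilises microtubules, stood at 123, 573 and 325 CPM in resident and at 17.5, 11.6, 34.8 and 23.4 CPM in Lyve1 macrophages.

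In the thymocyte-stage cluster of the arch the 22 G2/M genes summed to 5247 CPM. Its Ube2c level was 888 CPM (679 UMIs), Top2a 590 CPM, Birc5 586 CPM and Rrm2 381 CPM. The same sum was 981 CPM in adventitial plasma cells, 805 CPM in adventitial dendritic cells, and 88.2, 1241 and 582 CPM in resident macrophages. It was 32.1, 52.4, 108 and 148 CPM in endothelial cells of the 4 libraries. In red cells it was 106, 94.0, 109 and 84.5 CPM, so the endothelial sums of the 3 intimal libraries lay at or below those of a class without a nucleus. That order rested on Ube2c, which stood at 72.7, 62.7, 45.0 and 56.7 CPM in red cells of the 4 libraries. Without Ube2c the endothelial sums lay above the red cell sums in b and the arch and below in a. Of the 22 genes, 9 were at 0 in red cells of the arch and 16 in those of the descending aorta.

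**Figure D4:**
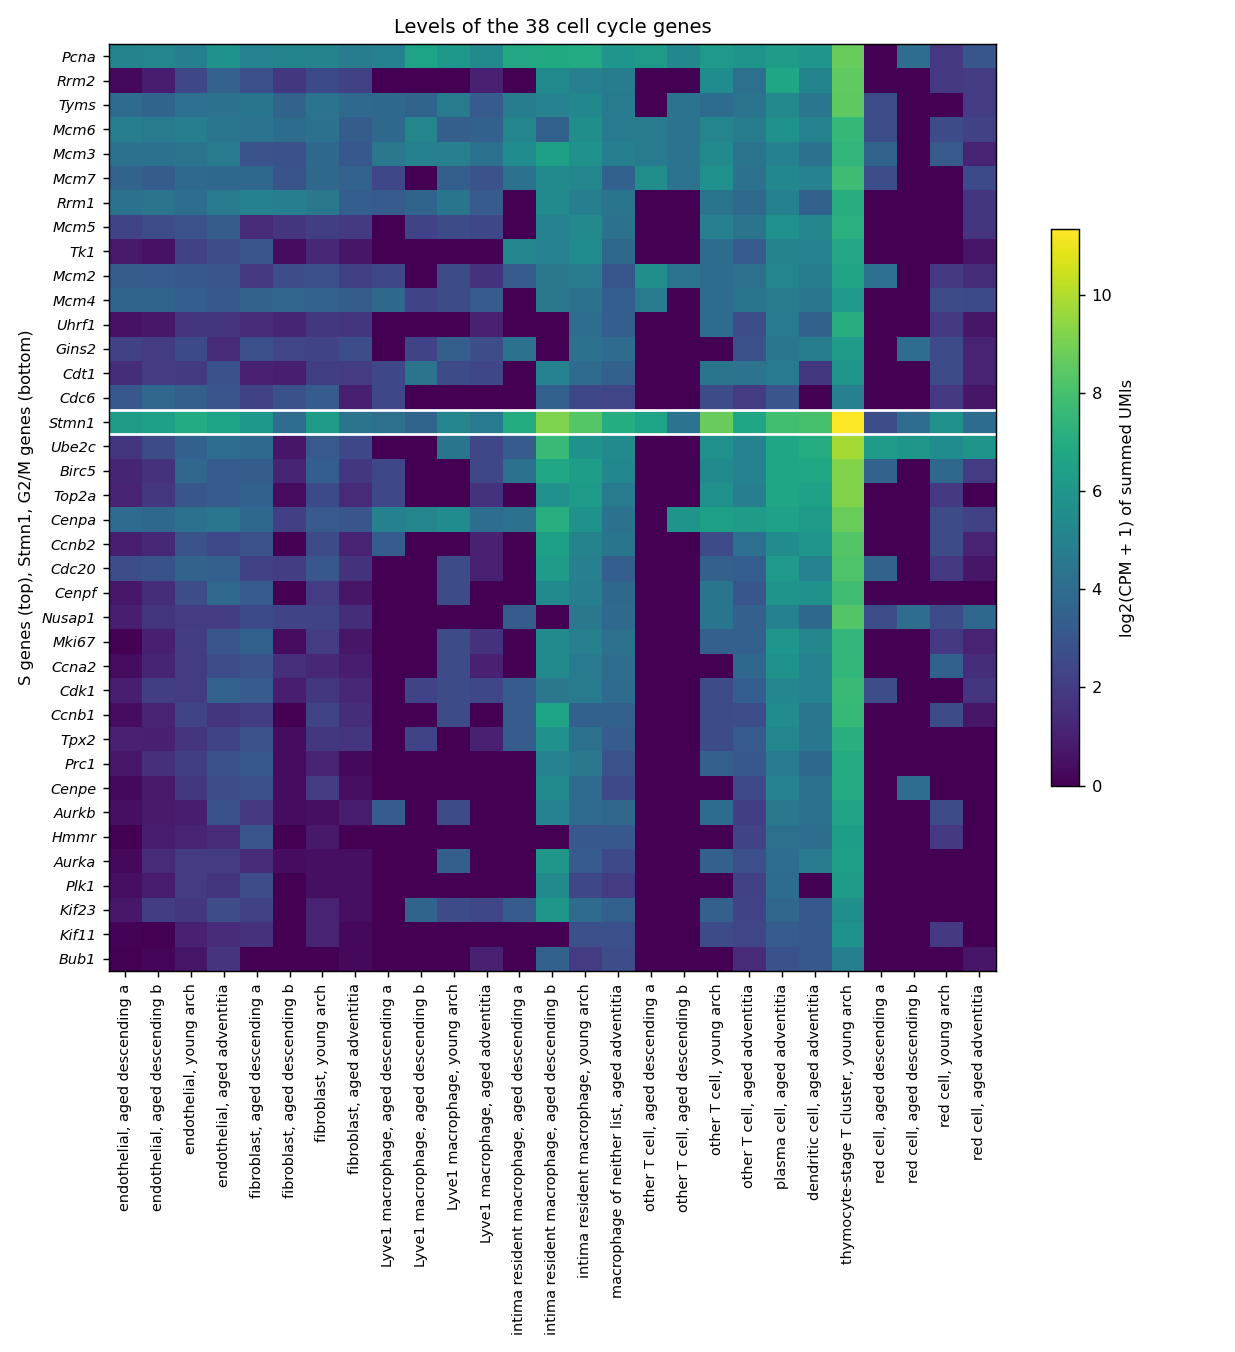
Level of each of the 38 genes, as log2(CPM + 1) in colour, by cell class and library (columns), with S genes in the upper rows, then Stmn1, then G2/M genes. The thymocyte-stage column is bright throughout, and the endothelial and fibroblast columns are bright in many S genes and dark in most G2/M genes.

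Macrophages were compared with endothelial cells over the 3 intimal libraries, with the counts of each class summed per library and the library as a block. In summed counts more dividing cells and more RNA per cell cannot be told apart. By edgeR's quasi-likelihood test (adjusted p under 0.05 over 11839 genes), 28 of the 35 tested members were higher in macrophages and none was lower, where 19.3% of all genes were higher, 22.7% lower and 42% called in either direction. The median member difference was 2.54 (log2) beside -0.17 over all genes. The filter on low counts could keep a gene through the macrophage or fibroblast sums. Mki67 and Ccna2, for example, stood at 1.48 and 1.55 CPM in endothelial sums and at 15.8 and 13.3 CPM in macrophage sums. The 28 of 35, the 19.3% and the counts of the other gene lists in this fit therefore describe and support nothing. Pcna was higher by 1.84 ± 0.19 (log2 ± SE, edgeR adjusted p = 1.74e-06), Cenpa by 1.97 ± 0.32 (edgeR adjusted p = 1.63e-04), Birc5 by 3.10 ± 0.52 (edgeR adjusted p = 2.05e-04) and Mcm3 by 1.47 ± 0.25 (edgeR adjusted p = 2.28e-04). These 4 had the lowest adjusted p among the members.

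Of the 14 S genes tested, 9 were higher in macrophages: beside Pcna and Mcm3 these were Tk1 (3.93), Rrm2 (3.12), Cdt1 (2.54), Mcm5 (1.91), Gins2 (1.66), Tyms (1.13) and Mcm7 (1.00). Mcm2, Mcm4, Mcm6, Rrm1 and Cdc6 did not pass, Cdc6 at -1.37. Of the 20 G2/M genes tested, 18 were higher. Of the kinases and cyclins, Aurkb (4.12), Ccna2 (3.27), Ccnb1 (3.05), Ccnb2 (2.95), Aurka (2.71) and Cdk1 (2.63) were among them. Of the chromosome and spindle genes, Mki67 (3.56), Top2a (3.26), Tpx2 (3.24), Cenpe (3.04), Kif23 (2.95), Prc1 (2.58), Cenpf (2.56) and Nusap1 (2.31) were higher, as were Ube2c (2.89) and Cdc20 (1.29) of the anaphase-promoting pathway. Stmn1 was higher by 1.04. Plk1 and Hmmr did not pass, and Uhrf1, Bub1 and Kif11 were too low to be tested.

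The count fell without the arch and without cells that held many of the genes. The genes themselves chose those cells, so fewer calls without them were built in, here and in later comparisons. Without the arch library 10 members were higher, without cells that met the count of 5 there were 4 higher and 1 lower, and without cells that met the count of 10 there were 8. Stmn1 stood at -1.32 without the first set and at -0.64 without the second. Without the arch, Mcm5 stood at 0.60, Gins2 at 0.69, Mcm7 at 0.29, Top2a at 2.57, Cdk1 at 1.79 and Cenpe at 3.85, none of which passed there, and Birc5 at 3.78 and Ccnb2 at 3.88. Of other genes of the pathway, 8 of 23 replication genes were higher, such as Fen1 (2.33) and Slbp (1.07), and none lower. Of 30 other mitosis genes 19 were higher, such as Cks2 (3.56) and Hmgb2 (2.97), and 3 lower, among them Tmpo (-1.46) and Pttg1 (-0.89). Of 14 regulators of the G1 to S step, 4 were higher, including E2f1 (4.37) and Cdk6 (2.23), and 1 was lower, Ccnd2 (-1.82). Of 11 chromatin and tubulin genes 5 were higher and 2 lower.

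Within intimal macrophages, the resident subtype was compared with the Lyve1 subtype over the same 3 libraries. Only 7 members had enough counts, and 5 of them were higher in resident macrophages by edgeR, where 12.8% of 3428 genes were. Stmn1 was higher by 4.03 ± 0.38 (edgeR adjusted p = 1.03e-06) and Pcna by 1.01 ± 0.32 (edgeR adjusted p = 2.90e-02). Ube2c was higher by 3.68 ± 0.82 (edgeR adjusted p = 3.28e-03). Birc5 had 66 UMIs against 1, a ratio of 51.3 with a counting interval of 8.89 to 2056, and an edgeR adjusted p of 3.74e-04. Top2a had 57 UMIs against 1, a ratio of 44.3 (7.64 to 1780), and an edgeR adjusted p of 5.57e-03. Mcm3 and Cenpa stood at 1.18 and 0.86 and did not pass.

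The other 31 members were too low for this fit. Birc5, Top2a and Ube2c had 1, 1 and 4 UMIs in Lyve1 macrophages and passed the filter through the resident group, so the 5 of 7 and the 12.8% describe and support nothing. Leaving out the arch left 1 call, leaving out descending library b left 2, and leaving out cells that met the count of 5 left none. DESeq2, another count test, called 2. Without b Stmn1 stood at 3.20. Of the other lists, Cks1b (4.34), Cks2 (2.17), Hmgb2 (2.06) and Smc4 (1.87) of the mitosis genes were higher (4 of 7 tested), with Dut (2.06) and Tipin (1.69) of the replication genes (2 of 4), Ccnd2 (1.85) and Cdk6 (1.67) of the G1 to S regulators (2 of 5), and 5 of 10 chromatin and tubulin genes. None of these lists held a gene that was lower.

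Fibroblasts were compared with endothelial cells in the same fit as macrophages. By edgeR 1 of 35 members was higher and 3 were lower, where 23.8% and 23.5% of all genes were. Rrm1 was higher by 0.73 ± 0.20 (edgeR adjusted p = 7.95e-03). Mcm3 stood at -0.98 ± 0.22 (edgeR adjusted p = 2.05e-03), Mcm6 at -0.49 ± 0.18 (edgeR adjusted p = 3.18e-02) and Cenpa at -0.84 ± 0.31 (edgeR adjusted p = 3.72e-02). The median over the members was 0.45, beside -0.02 over all genes. The 4 members called of 35 stand beside 47.3% of all genes called in either direction. Without library b 0 were higher and 1 lower, and without the arch 6 and 5. The G2/M genes of fibroblasts were uneven between the descending libraries: Mki67 stood at 10.6 CPM in a and 0.316 in b, Top2a at the same 2 values, and Hmmr had 13 UMIs in a and 0 in b.

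Arch endothelium was then compared with descending endothelium, 1 library against 2. The spread came from the descending pair alone, so the arch library was assumed to vary like it. By edgeR 17 of 37 members tested were higher in the arch, none lower, where 6.41% of 12971 genes were higher and 5.47% lower (11.9% in all). In this fit and the later ones of arch or adventitia, the filter on low counts could keep a gene through 1 library. Kif11, with 1 UMI in descending endothelium, was not kept through the descending libraries. The 17 and the 6.41% therefore describe and support nothing. The median member difference was 1.03 beside -0.01 over all genes. Birc5 was higher by 2.95 ± 0.35 (edgeR adjusted p = 1.68e-08), Ccnb2 by 2.52 ± 0.43 (edgeR adjusted p = 2.41e-05), Rrm2 by 3.10 ± 0.57 (edgeR adjusted p = 7.97e-05) and Top2a by 2.08 ± 0.40 (edgeR adjusted p = 1.49e-04). DESeq2 called none of the 37, so the count rests on the choice of test.

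The calls were mostly of G2/M genes: 13 of 21 tested, beside 3 of 15 S genes and Stmn1 (0.72). The S genes were Rrm2, Tk1 (2.56) and Uhrf1 (2.06). The other G2/M genes were Mki67 (2.77), Ccnb1 (2.56), Cenpe (2.48), Plk1 (2.33), Cenpf (2.26), Ccna2 (2.03), Aurka (1.83), Ube2c (1.59), Cdc20 (1.00) and Kif11, with 13 UMIs against 1 (a ratio of 20.8, counting interval 3.12 to 883). Pcna stood at -0.14, Mcm2 at -0.20, Mcm4 at -0.23 and Rrm1 at -0.18, none of which passed. Without cells that met the count of 10, 11 members were called, and Birc5 (3.78), Ccnb2 (3.41) and Top2a (3.12) had larger differences than with them. Without cells that met the count of 5, 6 were called. The descending libraries weighed on single genes: without a, Rrm2 stood at 2.33, Ccnb1 at 1.84, Cenpe at 1.75, Mki67 at 1.68, Ccna2 at 1.28 and Aurka at 0.94. Without b, Rrm2 stood at 4.48, Aurka at 3.88, Ccnb1 at 3.76, Cenpe at 3.71, Ccna2 at 3.33, Cenpf at 3.09, Plk1 at 3.02, Top2a at 2.70 and Ube2c at 2.27. Arch endothelial cells lay mainly in clusters 6 and 11 (612 and 554 cells), and descending ones in clusters 2, 8 and 9.

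Thymocyte genes were called in the same fit. Of 12 thymocyte markers, 9 of 10 tested were higher in arch endothelium (median 4.18), among them Cd8b1 (5.63 ± 0.29, edgeR adjusted p = 1.20e-18), Ccr9 (5.61) and Tcf7 (2.74). Rag1 had 41 UMIs in arch endothelium and 0 in descending endothelium, so it was not kept through the descending libraries. Since the filter could keep a marker through the arch alone, the 9 of 10 and the median of 4.18 describe and support nothing. The summed level of the 12 was 18.8, 19.4, 94.3 and 20.1 CPM in endothelial cells of a, b, arch and adventitia, 5.32, 6.01, 81.4 and 21.1 in fibroblasts, 26.2, 11.6, 59.7 and 41.4 in Lyve1 macrophages and 11.2, 0, 68.9 and 26.5 in red cells. In the thymocyte-stage cluster it was 3254 CPM. None of the 12 was at 0 in arch endothelium, 2 were at 0 in descending endothelium, and 6 were at 0 in arch red cells.

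As a part of the thymocyte-stage level, arch endothelial cells held 2.90% of the thymocyte markers, 2.05% of the G2/M genes and 6.71% of the S genes. Arch fibroblasts held 2.50%, 1.36% and 6.25%, arch red cells 2.12%, 2.07% and 1.63%, arch Lyve1 macrophages 1.83%, 2.18% and 7.29%, and arch resident macrophages 3.77%, 11.1% and 20.7%. These are shares of sums. The median over single genes, thymocyte markers first and G2/M genes second, was 2.52% and 2.01% in endothelial cells, 2.40% and 1.29% in fibroblasts, 0.192% and 1.06% in red cells, 0% and 0.837% in Lyve1 macrophages and 2.31% and 12.1% in resident macrophages. G2/M genes stood above thymocyte markers by both measures in resident and Lyve1 macrophages and below by both in endothelial cells and fibroblasts. In red cells the measures differed in order, and 9 of the 22 G2/M genes were at 0 there. Birc5 had a UMI in 8.61% of arch endothelial cells (2.15% thinned) and in 7.02% of arch red cells (5.26% thinned), at median depths of 8418.5 and 5482 UMIs. Red cells of library a held Birc5 as well (4.88%). Top2a was found in 5.10% (1.75% thinned) and 1.75% (0% thinned) of these 2 classes, so after thinning red cells were the higher for Birc5 and the lower for Top2a, at 57 red cells. The part of the thymocyte-stage cells in the arch difference was not tested.

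**Figure D5:**
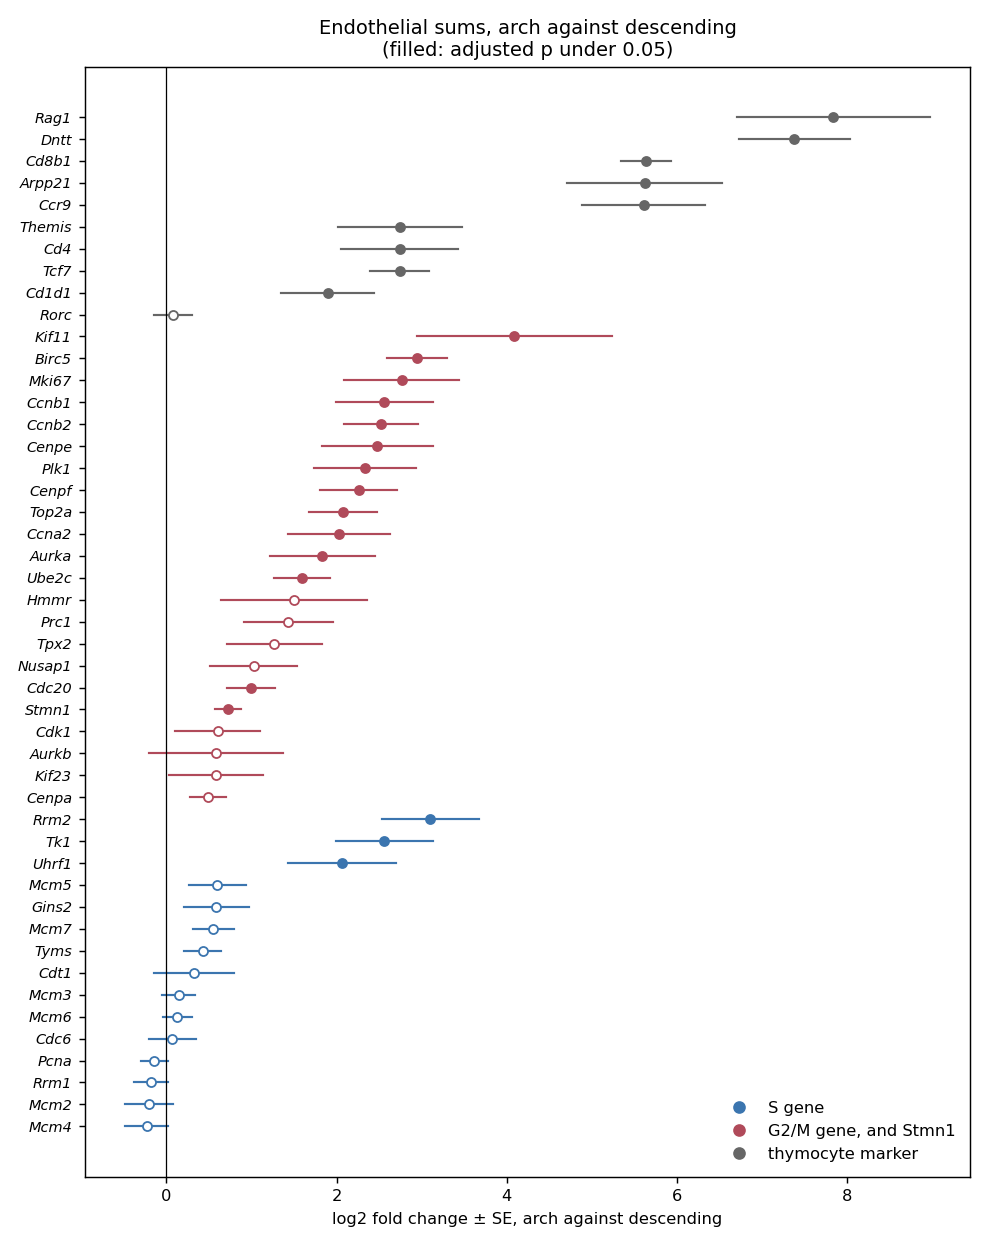
Difference between arch and descending endothelial sums (x axis, log2 fold change, lines are ± SE) for each tested thymocyte marker, G2/M gene with Stmn1, and S gene (rows); filled points passed edgeR's adjusted threshold of 0.05. The filled points are 9 thymocyte markers, 13 G2/M genes, Stmn1 and 3 S genes; Rag1 had no UMI in descending endothelium and Dntt, Arpp21 and Kif11 had 1, so their positions rest on few counts.

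In arch fibroblasts 1 of 29 members was higher than in descending fibroblasts by edgeR, Stmn1 at 1.07 ± 0.22 (edgeR adjusted p = 1.04e-04, not called by DESeq2), where 2.80% of all genes were and 2.18% were lower (4.98% in all). Of 5 thymocyte markers tested there, 4 were higher. In this fit and in that of macrophages below, the filter could keep a gene through 1 library. Their counts of genes called therefore describe and support nothing. Without library a Stmn1 stood at 2.27 and without b at 0.29. In arch macrophages 4 of 28 members were higher than in descending macrophages, where 2.60% of genes were and 2.82% were lower (5.42% in all). These were Stmn1 (1.35 ± 0.27, edgeR adjusted p = 6.71e-05), Top2a (2.84 ± 0.58, edgeR adjusted p = 7.10e-05), Birc5 (1.80 ± 0.49, edgeR adjusted p = 7.87e-03) and Mcm5 (2.53 ± 0.78, edgeR adjusted p = 2.56e-02). Resident cells were 75 of 115 arch macrophages and 25 of 81 and 18 of 70 descending ones. Without library a Top2a stood at 2.16 and Mcm5 at 1.59. Without b Top2a stood at 4.37, Birc5 at 2.88 and Stmn1 at 2.38. Without cells that met the count of 10 none of the 4 was called, nor with doublets kept or by DESeq2.

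Adventitial cells were compared with the same descending libraries, so the calls are not independent of those of the arch. In endothelial cells 14 of 37 members were higher in the adventitia by edgeR, where 18.5% of genes were, and none was lower. The filter could keep a gene through the adventitia alone, so the 14 and the 18.5% describe and support nothing. Cenpf stood at 3.65 ± 0.61 (edgeR adjusted p = 3.53e-06), Rrm2 at 4.47 ± 0.76 (edgeR adjusted p = 4.42e-06), Ube2c at 2.20 ± 0.50 (edgeR adjusted p = 4.00e-04) and Mki67 at 3.97 ± 0.96 (edgeR adjusted p = 8.42e-04). The others were Cenpe (3.62), Aurkb (3.53), Tk1 (3.23), Ccna2 (2.99), Cdk1 (2.52), Birc5 (2.47), Top2a (2.38), Prc1 (2.36), Ccnb2 (2.07) and Pcna (0.87). Without the 4 adventitial cells and the 1 and 3 descending cells that met the count of 10, 4 members were called. Cenpf, Prc1 and Ccna2 then changed sign. The cells left out were chosen by the same genes, so fewer calls were built in. DESeq2 called 2. Without library b, Rrm2 stood at 5.85, Cenpe at 4.85, Cenpf at 4.49, Ccna2 at 4.31, Cdk1 at 3.62, Prc1 at 3.32, Top2a at 3.02 and Ube2c at 2.89. Without a, Rrm2 stood at 3.70, Mki67 at 2.90, Cenpe at 2.89, Ccna2 at 2.25, Cdk1 at 1.87 and Prc1 at 1.74. These endothelial cells came from other clusters (13 and 26) than those of the intima.

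In fibroblasts 5 of 29 members were lower in the adventitia by edgeR, where 10.7% of genes were. DESeq2 called none of the 5, and with doublets kept 1 was called. Rrm1 stood at -1.47 ± 0.29 (edgeR adjusted p = 4.47e-06), Stmn1 at -0.77 ± 0.25 (edgeR adjusted p = 1.02e-02) and Cdc6 at -2.14. Mki67 had 3 UMIs against 21 (a ratio of 0.145, counting interval 0.0276 to 0.484), and Hmmr 0 against 13, at least 4.28-fold lower by a floor of 3 counts over the adventitial sum. The Hmmr UMIs and 20 of the 21 Mki67 UMIs came from library a. Without library a Stmn1 stood at 0.43, and without b at -1.56. Intimal fibroblasts lay in cluster 1 and adventitial ones in clusters 5 and 12. In macrophages none of 28 members passed by edgeR or DESeq2, 2 had an unadjusted p under 0.05, and 13% of all genes were called, 7.41% higher and 5.61% lower. Their median was 0.08, beside -0.06 over all genes. In counts simulated with a set spread, this fit recovered 7 of 100 genes changed 2-fold and 52 of 100 changed 4-fold. Members that did not pass may therefore still differ.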

How the data were processed

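Single-cell RNA was measured in 4 libraries. The deposited values were whole-number UMI counts per gene and cell, made by the authors with Cell Ranger 2.1.2 on the mm10 build, per the submitters' processing notes. The extract protocol given for the adventitia repeats that of the intima, and a count setting for strand is not given in the sources used here.

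Barcodes passed with 200 or more genes detected and no more than 10% of UMIs from mitochondria. Doublets were removed at 0.8% per 1000 cells with Scrublet scores in scanpy 1.11.5. The caller's own threshold marked 6, 24, 24 and 2 cells, and the rate removed 44, 37, 50 and 647. Clustering (Python 3.11.15, leidenalg 0.10.2) used 2000 variable genes, 30 components, 15 neighbours and a resolution of 1. The 38 members and the listed other replication, other mitosis, and chromatin and tubulin genes were left out. Clusters were named from at least 3 detected markers. The lists were the 38 members, other replication genes, other mitosis genes, regulators of the G1 to S step, chromatin and tubulin genes, and thymocyte markers. Members and lists were chosen with earlier results of these data known. The naming rules for pericytes, red cells and leading genes were settled after seeing the data.

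UMI counts were summed per library and class and tested with edgeR 4.0.16 in R 4.3.3 (quasi-likelihood test, filter on low counts, Benjamini-Hochberg adjustment over all genes tested, threshold 0.05), with DESeq2 1.42.0 as an alternative. The scripts were tested on simulated data. All members were accounted for, those past the threshold were named, and at most 4 per comparison got full statistics. Other alternatives changed the count of genes per cell, depth, doublets, the filter, clustering and the libraries used. Intervals on UMI sums are exact Poisson intervals, and on shares exact binomial ones, at 95%.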

Additional observations from a re-analysis of the deposited data

How the results depend on the processing

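No paired analysis was possible because arch, adventitia and descending aorta share only replicate number 1, which names no common animal or batch. Comparisons of classes within libraries had the library as a block throughout. Counting cells with 3 or more genes gave shares of 19.8%, 15.9%, 41.8% and 5.71% in a, b, arch and adventitia, and of 46.0%, 68.7% and 62.7% in arch endothelial cells, T cells and resident macrophages. Counting 8 or more gave 0.604%, 0.525%, 7.68% and 1.55%, and 3.35% of arch endothelium. Thinning to 2000 UMIs gave 0.415%, 0.409% and 5.28% in the intima, 0.478% of arch endothelium and 10.7% of arch resident macrophages. Thinning to 1000 UMIs gave 0.252%, 0.334%, 4.29% and 0.650%, and 0.239%, 49.7% and 2.67% in the 3 arch classes. Without Stmn1, Pcna, Tyms, Rrm1 and Mcm7 the shares were 0.655%, 0.811%, 8.91% and 1.71%, and 5.02% of arch endothelium. Without the thymocyte-stage cluster, added after seeing the data like the next counts, the arch share was 14.3%. A count of 10 gave 0.403%, 0.477%, 5.75% and 1.40%, with 0.957% of arch endothelium and 13.3% of resident macrophages. A count of 5 G2/M genes gave 0.403%, 0.334%, 5.04% and 1.34%, and 0.877%, 49.1% and 12.0% in the 3 arch classes. The arch share stayed the highest of the 4 in each of these.

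Members called by edgeR moved with the setting. Cells with 5 or more or 10 or more genes were chosen by the genes themselves, so fewer calls without them were built in. Without a filter on low counts, 1 member was lower in macrophages than endothelial cells, fibroblasts against endothelium had 4 higher and 5 lower, resident against Lyve1 macrophages had 18 higher, and arch macrophages had 1 higher among 158 genes called. Leaving out cells with 5 or more genes left 4 higher and 1 lower in macrophages, 0 in resident macrophages, 6 in arch endothelium (577 genes called), 0 in arch macrophages (226 genes), 4 in adventitial endothelium, and 1 higher and 2 lower in adventitial fibroblasts. Leaving out cells with 10 or more, added after seeing the data, left 8 in macrophages, 2 higher and 5 lower in fibroblasts against endothelium, 1 in resident macrophages, 11 in arch endothelium, 3 in arch fibroblasts, 0 in arch macrophages (136 genes), 4 in adventitial endothelium, 1 higher and 2 lower in adventitial fibroblasts, and 591 genes in adventitial macrophages.

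DESeq2 called 2 higher and 1 lower in fibroblasts against endothelium, 2 in resident macrophages (467 genes), 0 in arch endothelium (187 genes), arch fibroblasts (52 genes) and arch macrophages (78 genes), 2 in adventitial endothelium (2077 genes), 0 in adventitial fibroblasts (595 genes), and 183 genes in adventitial macrophages. With doublets kept, fibroblasts against endothelium had 3 higher, arch macrophages 0 (0 genes called), adventitial fibroblasts 1 lower, and adventitial macrophages 0 genes called. Clustering with all variable genes gave 2 higher in fibroblasts against endothelium, 2 in arch fibroblasts (329 genes), 2 lower in adventitial fibroblasts and 1 lower in adventitial macrophages. Over libraries left out in turn, macrophages had 10 to 29 members higher (the fewest without the arch), fibroblasts against endothelium 0 to 6 higher and 1 to 5 lower, and resident macrophages 1 to 4 higher, with 3811 to 3860, 3964 to 5701 and 708 to 772 genes called. Without 1 descending library, the fits of arch or adventitia against descending keep no residual degree of freedom, so they give fold changes only.

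Some differences changed sign. In macrophages against endothelium, Cdc20, Mcm7 and Stmn1 stood at -0.60, -0.22 and -1.32 without cells of 5 or more genes, and Nusap1 and Stmn1 at -0.63 and -0.64 without those of 10 or more. In adventitial endothelium Cenpf stood at -4.02 without the first set, and Ccna2, Cenpf and Prc1 at -3.82, -4.93 and -4.58 without the second, fitted to few counts. In adventitial fibroblasts Stmn1 stood at 0.68 and 0.63 without the 2 sets, at 0.25 with all variable genes and at 0.43 without descending library a (-1.56 without b). The cause of these changes was not tested, apart from the fewer cells or libraries that each setting keeps. Depth limits the Lyve1 macrophages and the descending resident macrophages, where most G2/M genes had 0 to 10 UMIs, and shares at 5 genes in classes of unequal depth.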

Other observations

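Other genes of the cell cycle were set against the count of 10 in the same class and library, as a description, since the 38 genes chose the cells. In the thymocyte-stage cluster of the arch, 45 other mitosis genes summed to 7.43 times the level of cells with fewer than 5 of the 38 genes, and 20 of them were higher with intervals apart. The ratio was 6.76 in arch resident macrophages (26 genes), 11.5 in adventitial plasma cells (38 genes), 9.80 in adventitial T cells (40 genes) and 9.87 in adventitial dendritic cells (16 genes). Arch endothelial cells stood at 4.48 (38 genes). For 32 other replication genes the ratios in the same order were 5.61, 5.47, 7.58, 4.42, 4.98 and 1.86, arch endothelium being the lowest. The 22 regulators of the G1 to S step, such as cyclin D and E2F genes, stood at 1.17, 1.57, 1.92, 1.37, 1.37 and 1.05. Chromatin and tubulin genes, whose products package DNA and form the spindle, stood at 5.00, 3.84, 5.50, 5.00, 2.98 and 2.02.

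Identity genes differed between the same sets of cells in some classes. In plasma cells with 10 or more of the 38 genes, Jchain, which joins antibody units, stood at 5840 CPM beside 64573 CPM in those with fewer than 5, Xbp1, a factor of secretory cells, at 702 beside 2624, and Sdc1 at 36.9 beside 263. Mzb1 stood at 3898 beside 4588 CPM. When the cycle genes took part in clustering, 67 adventitial cells led by Mzb1, Pclaf and Ube2c formed a cluster of their own. In arch resident macrophages Mmp12 stood at 1275 beside 1669 CPM, Lgals3 at 415 beside 1333 and Cd9 at 277 beside 625, with intervals apart. Trem2 stood at 7.29 beside 71.8, also with intervals apart, though the first value rests on 1 UMI. Mmp13, Cd72 and Il1b were lower with overlapping intervals. Itgax (233 beside 167), Cx3cr1 (204 beside 150) and Cd207 were higher with overlapping intervals. In the thymocyte-stage cluster Rag1, which rearranges receptor genes, stood at 92.4 beside 419 CPM and Dntt at 768 beside 837. Tcf7 went the other way there, at 705 beside 401 CPM. In arch endothelial cells Cdh5 stood at 334 beside 338 CPM, Pecam1 at 2163 beside 2872 and Eng at 702 beside 404. These cells are few, from 9 to 88 per class, and no test was made.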
